A study of Mus musculus with 47 samples.

Results

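The mammary gland of the virgin mouse was compared at 2 ages, 10 weeks (W10) and 4 months (M4), separately in luminal and basal epithelial cells. All animals were FVB/N females that had not been pregnant, and the M4 mice served in the study as age-matched nulliparous controls for parous mice at week 4 of involution (Iw4). Of the 46 libraries of the series used here, 12 belong to these ages, 3 from each cell type at each age: replicates 3, 5 and 6 at W10 and replicates 1, 2 and 6 at M4. Libraries were taken by the time point and cell type on their labels. Each replicate was one sort, in which glands pooled from several mice were dissociated, cells carrying blood, vessel or stromal antigens were removed, and luminal (CD24+ CD29lo) and basal (CD24+ CD29hi) cells were collected with gates that were adjusted slightly from sort to sort. The labels give no estrous stage. The RNA was amplified from a few nanograms before library preparation. The W10 libraries held 8378344, 11438112 and 6551784 reads on genes in luminal cells and 12847730, 8113350 and 10649797 in basal cells. The M4 libraries held 5549247, 6901489 and 6592201 in luminal cells and 8077296, 8171848 and 4980557 in basal cells.

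The comparison carries a limit that no fit can remove. Per the labels, all 6 W10 libraries were sequenced on lane 2 and amplified in batch 4, whereas all 6 M4 libraries were sequenced on lane 7 and amplified in batches 2, 1 and 3 for replicates 1, 2 and 6. No lane or batch holds both ages, so age, lane and amplification batch cannot be told apart. Values are given throughout as read counts scaled to library size (CPM), in the order of the replicates above. A gene was called higher or lower at M4 when its fold change was at least 2 and its false discovery rate (FDR) was under 0.01 in a limma fit to log2(CPM + 1). Fold changes are on that log2 scale, which understates the change of weakly expressed genes. Standard errors (SE) and p-values use a spread between sorts that was estimated over all 46 libraries and 16 conditions of the fit. They do not measure the spread of the compared libraries alone, and the n beside an SE is the number of libraries in each group.

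By 10 weeks the ducts of the virgin mouse gland have grown through the fat pad, and each later estrous cycle brings rounds of side branching, division of luminal cells and partial regression. Luminal cells line the duct and comprise hormone-sensing cells, which carry estrogen and progesterone receptors, and alveolar progenitors, which give rise to milk-secreting cells in pregnancy. Basal cells are mostly contractile myoepithelium that lies on the basement membrane and squeezes milk forward in response to oxytocin.

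Markers of the sorted cells followed the labels at both ages. The luminal markers (17 genes, among them the keratins Krt8, Krt18 and Krt19) summed to 12247, 13168 and 12288 CPM in W10 luminal libraries and 10679, 8332 and 7847 CPM in M4 luminal libraries. In basal libraries the same sum was 1965, 3295 and 994 CPM at W10 and 1722, 1515 and 1794 CPM at M4, so W10 basal replicate 5 had the highest sum of these 17 genes among the basal libraries. The basal markers, led by smooth muscle actin (Acta2), summed to 26516, 25414 and 36699.9 CPM in W10 basal libraries, 26629, 17784 and 18147 CPM in M4 basal libraries, and 1247, 1446 and 1348 and 1269.6, 1176 and 1219 CPM in the luminal libraries of W10 and M4. Krt5, a keratin of basal cells, measured 1879, 1469 and 1997 CPM at W10 and 1945, 2067 and 1293 CPM at M4 in basal cells and at most 19.4 CPM in luminal cells. Cd24a, the antigen used to gate epithelium, measured 762, 1274 and 1659 CPM at W10 and 1278, 1178 and 1162 CPM at M4 in luminal cells. Itgb1, which encodes CD29, measured 506, 519.9 and 622 CPM at W10 and 620.0, 414 and 403 CPM at M4 in basal cells and 245, 328 and 309 and 309.7, 210.2 and 253 CPM in luminal cells. Ptprc (CD45), the leukocyte antigen removed in the sort, did not exceed 1.04 CPM in any of the 12 libraries.

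Among the genes past both thresholds, more were higher at M4 than lower. In luminal cells 150 of 17078 genes were called higher (0.878% of those tested) and 16 lower (0.0937%). In basal cells 174 were called higher (1.02%) and 5 lower (0.0293%). The number of calls leaned on single libraries and on the pooled estimate of spread: without M4 luminal replicate 1 the luminal genes called higher numbered 9, without M4 basal replicate 2 the basal ones numbered 36, and with only the 12 libraries of both ages in the fit they numbered 23 and 49. Without the thresholds the balance was different: 1482 of the 2968 luminal and 1262 of the 2119 basal genes with an unadjusted p under 0.05 were higher. Every M4 library lay above every W10 library for 10.9% of luminal and 11.4% of basal genes, and below for 14.3% and 13.6%. The calls were 90.4% higher in luminal cells and 97.2% higher in basal cells, although the median log2 fold change of all genes was -0.06 in both. Of the genes called higher, 82 were called in both cell types, which is 54.7% of the luminal and 47.1% of the basal calls. No gene was called lower in both or called in opposite directions. Among the luminal calls, 149 of the 150 higher genes had a positive basal fold change and all 16 lower genes a negative one. All 174 higher and 5 lower basal calls had the same sign in luminal cells. The luminal and basal libraries of one age share mice, lane label and batch, so these like signs are not independent of each other. No gene was called (0.0%) when the change itself was compared between the cell types: the smallest adjusted p of that interaction was 1 in limma, 332 genes had an unadjusted p under 0.05, and edgeR on recovered reads called 0 with 411 under 0.05. The unadjusted 95% interval of the median gene's interaction reached 1.00 log2 units to either side.

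**Figure D1:**
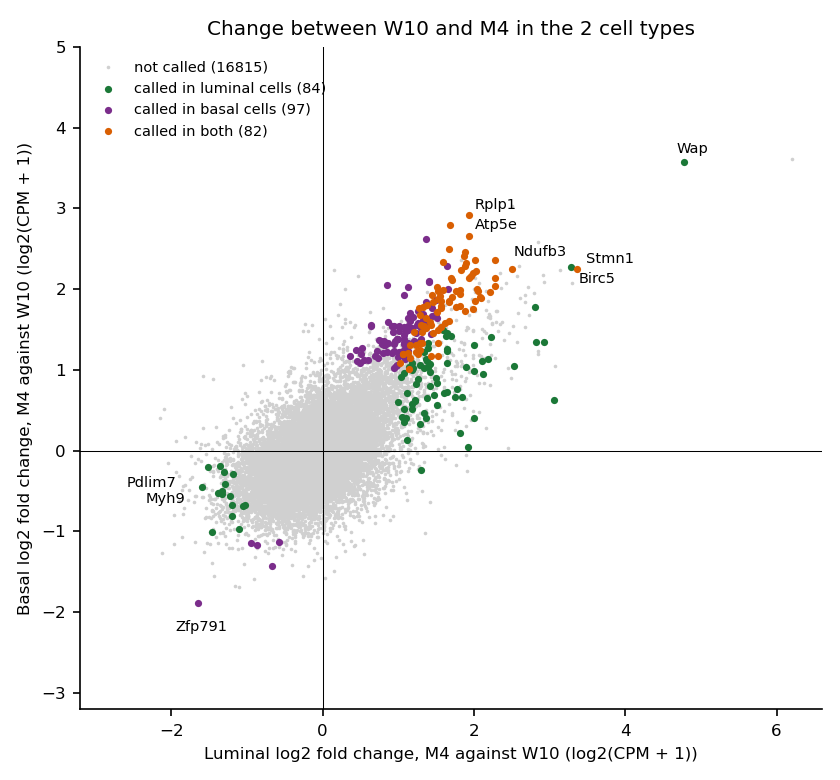
Log2 fold change of each gene between M4 and W10 in luminal cells (horizontal axis) against basal cells (vertical axis), on the log2(CPM + 1) scale, coloured by the cell type in which the gene was called. The 82 genes called in both cell types (orange) all lie in the upper right, and the named genes at the far right are the milk protein gene Wap and the cell cycle genes Stmn1 and Birc5.

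Genes of the respiratory chain and the ribosome were among those that rose in both cell types. Rplp1, an acidic protein of the ribosomal stalk, had the largest basal change among the genes called, from 24.8, 33.9 and 34.8 CPM at W10 to 299.8, 276 and 167 CPM at M4. All 3 M4 libraries lay far above all 3 W10 libraries, with a log2 fold change of 2.92 ± 0.30 (SE, n = 3 per time point, adjusted p = 1.29e-07). Its luminal libraries held 65.8, 55.8 and 60.9 CPM at W10 and 316, 224 and 182 CPM at M4, for a log2 fold change of 1.93, adjusted p = 0.000269. Ndufb3, a small accessory subunit of complex I, measured 6.85, 15.8 and 19.3 CPM at W10 and 120.3, 64.5 and 61.0 CPM at M4 in luminal cells. Its luminal log2 fold change was 2.51 ± 0.38 (SE, n = 3 per time point, adjusted p = 0.000269), and the groups did not overlap. In basal cells Ndufb3 measured 6.58, 10.3 and 11.7 CPM at W10 and 58.3, 53.8 and 35.2 CPM at M4, a log2 fold change of 2.26, adjusted p = 0.000436. Cox4i1, a subunit of cytochrome c oxidase, measured 35.4, 53.8 and 65.8 CPM at W10 and 222, 199 and 139 CPM at M4 in basal cells, a log2 fold change of 1.85, adjusted p = 3.64e-05, and its luminal log2 fold change was 1.68, adjusted p = 0.000411. Atp5e, a subunit of ATP synthase, measured 7.98, 11.3 and 11.3 CPM at W10 and 81.2, 81.6 and 50.1 CPM at M4 in basal cells, a log2 fold change of 2.67, adjusted p = 9.26e-06. M4 replicate 6 was the lowest of the M4 libraries for Rplp1, Cox4i1 and Atp5e in both cell types. Beside these rose the spliceosomal Sm proteins Snrpe (luminal log2 fold change 2.28, basal 2.04) and Snrpg (1.94 and 2.14), the proteasome subunit Sem1 (1.88 and 2.28) and the cytokine Mif (1.99 and 2.20).

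Of 24 nuclear-encoded subunits of the respiratory chain and ATP synthase, 6 rose in luminal cells and 8 in basal cells, and none fell (0.878% and 1.02% of all genes were called higher). The luminal count was 1 without M4 replicate 1 and 4 without W10 replicate 3 or M4 replicate 2, and the basal count was 3 without W10 replicate 3, 4 without M4 replicate 1 and 5 without M4 replicate 2. With only the 12 libraries of both ages in the fit, 2 luminal and 3 basal members were called. The list's median log2 fold change was 0.99 in luminal and 1.17 in basal cells, beside -0.06 over all genes. With each library's trend on length and GC content removed it was 0.66 and 0.72. Every M4 library lay above every W10 library for 20 of the 24 in either cell type, where 10.9% of all luminal and 11.4% of all basal genes did so. Summed over the list, the level was 1520.4, 2786 and 2676 CPM in W10 luminal libraries and 3599.7, 3804 and 3134 CPM at M4, and 2332, 2229 and 2187 and 3407, 3768 and 2482 CPM in basal cells. The members called were those with short transcripts. All 6 luminal and all 8 basal calls came from the 10 members under 1000 nt (Ndufb3 and Cox4i1 above, and Ndufa1, Ndufa2, Ndufb5 and Cox5a among the others), whose medians were 1.50 and 1.77, and none of the 14 longer members was called (medians 0.59 and 0.69). For 10 of these 14, every M4 library nonetheless lay above every W10 library in either cell type, beside 10.9% and 11.4% of all genes. Ndufs1, a large catalytic subunit of complex I, had log2 fold changes of 0.18 in luminal and 0.33 in basal cells. Sdha, the flavoprotein of complex II, had 0.31 and 0.25, and both genes lay below the medians of the longer members. Further short subunits that are not on the list, named like Atp5e for the size of their change, were Uqcrq (2.50 in basal, 1.67 in luminal cells) and Uqcr11 (2.41 and 1.87) of complex III, Atp5k (2.46 and 1.88) and Atp5mpl (2.36 and 2.28) of ATP synthase, all called in both cell types. Subunits encoded by the mitochondrial genome, 13 genes, had medians of 0.35 and 0.23 with no call. With the length and GC trend removed these medians turned to -0.30 and -0.28 over the 10 genes tested.

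Of 30 ribosomal protein genes, 5 rose in luminal cells and 9 in basal cells, beside 0.878% and 1.02% of all genes, with medians of 0.86 and 1.04. The luminal count was 0 without M4 replicate 1, 1 without W10 replicate 3 and 2 without M4 replicate 2. The basal count was 3 without M4 replicate 1 or 2 and 4 without W10 replicate 3 or 5. With the length and GC trend removed 3 were called in each cell type, and the medians were 0.64 in luminal and 0.56 in basal cells. In the fit of 12 libraries 2 luminal and 4 basal members were called. Every M4 library lay above every W10 library for 18 of them in luminal and 23 in basal cells (beside 10.9% and 11.4% of all genes), and below for 1 in each. Length divided this list less: 3 of the 21 members under 1000 nt and 2 of the 9 longer ones rose in luminal cells (medians 0.98 and 0.74), and 6 and 3 in basal cells (medians 1.09 and 0.97). Rps14, a protein of the small subunit, measured 87.1, 75.4 and 84.7 CPM at W10 and 253, 270.5 and 198 CPM at M4 in basal cells, a log2 fold change of 1.53, adjusted p = 0.00128. Rpl4, one of the longest of the list, measured 1469.5, 1289 and 1488 CPM at W10 and 1496, 1289.8 and 1092 CPM at M4, a log2 fold change of -0.14, adjusted p = 0.873. The list summed to 2749, 4644 and 4759.9 CPM in W10 luminal libraries and 8242, 6567 and 5313 CPM in M4 luminal libraries. Reads of ribosomal protein genes can be shared with processed pseudogenes, so their counts are uncertain, and 20 of the 150 luminal and 37 of the 174 basal genes called higher are themselves processed pseudogenes. The share of processed pseudogenes among all genes tested is not given here, so no enrichment is read from these numbers. Rpl27-ps3, one of these, measured 0.813, 1.44 and 0.937 CPM at W10 and 10.3, 15.5 and 2.896 CPM at M4 in basal cells (log2 fold change 2.14, adjusted p = 0.000882). Rps15a-ps5, Gm8129 and Gm5963, also processed pseudogenes, had basal log2 fold changes of 2.32, 2.36 and 2.34, and Gm10073, an unnamed coding gene, 2.80, while Gm22058, a small noncoding RNA gene, had 2.62.

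**Figure D2:**
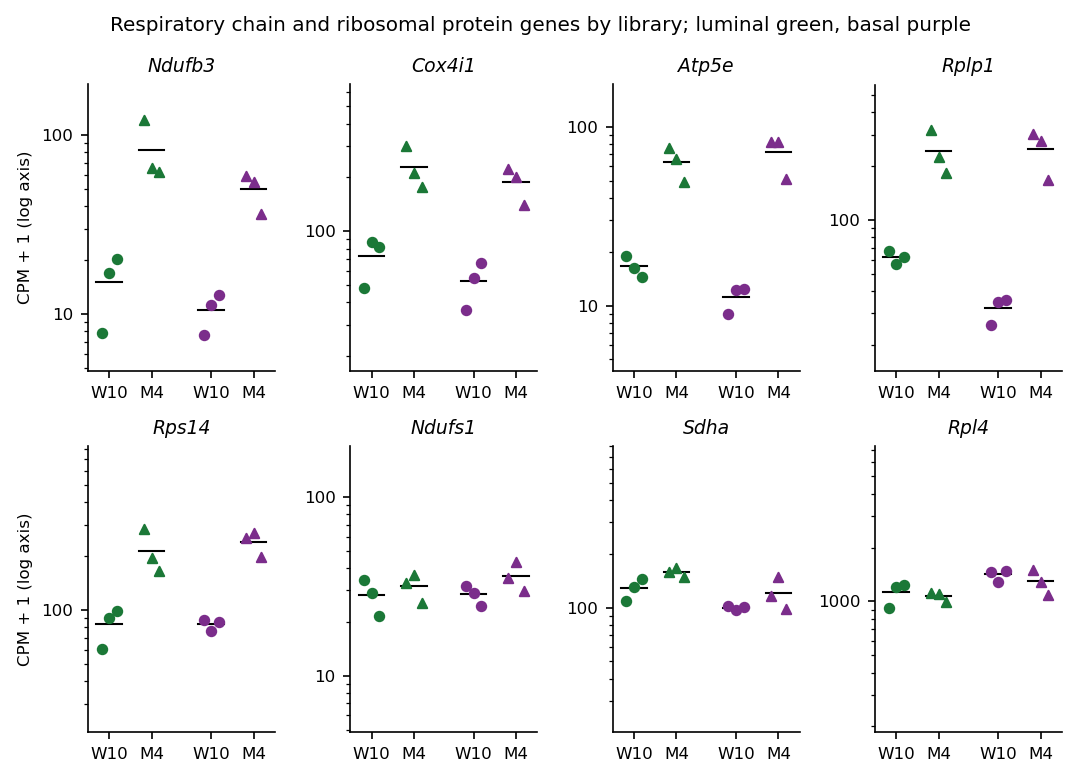
CPM + 1 of 8 respiratory chain and ribosomal protein genes in every W10 (circles) and M4 (triangles) library, luminal in green and basal in purple, on log axes that span the same fold range, with lines at the group means. The groups are apart for Ndufb3, Cox4i1, Atp5e, Rplp1 and Rps14, while for the long transcripts of Ndufs1 and Rpl4 the groups overlap.

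Transcript length went with the change in both cell types among the 10118 of 17078 genes that had a mean of 5 CPM or more and a known length, to which the medians by length, the correlations and the index below are limited. Taken over all calls, including those under a mean of 5 CPM, genes called higher had a median length of 877 nt in luminal and 654.5 nt in basal cells. The median of these 10118 genes was 2905 nt. Transcripts under 1000 nt made up 55.7% of the luminal and 73.6% of the basal genes called higher that have a length. Of the 10118 genes, 798 were under 1000 nt, although that set leaves out calls under a mean of 5 CPM. Among the 125 of the 10118 genes under 500 nt the median log2 fold change was 0.67 in luminal and 1.02 in basal cells, and it declined bin by bin to -0.27 and -0.35 at 6000 nt and above. Across genes, which are not independent replicates, log10 length had a Pearson r of -0.290 with the luminal and -0.481 with the basal log2 fold change. The same tilt was measured within each library as the median deviation of genes under 1000 nt from their mean over libraries, minus that of genes of 4000 nt or more. It was -0.74, -0.36 and -0.35 log2 units in W10 luminal libraries and 0.38, 0.34 and 0.04 in M4 luminal libraries. In basal cells it was -0.77, -0.48 and -0.46 at W10 and 0.38, 0.56 and 0.12 at M4. W10 replicate 3 was the lowest library in both cell types, and M4 replicate 6 the nearest to 0. When each library's smooth trend on length and GC content was removed, 53 luminal genes were called higher and 6 lower, and 48 and 3 basal genes. Of the calls first made that could be tested again, 50 of 123 luminal and 45 of 150 basal genes were still called higher. Under this removal 6 luminal and 4 basal respiratory chain genes were called higher. The part of length-dependent amplification or recovery of RNA in these calls was not tested, since batch and age cannot be told apart.

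**Figure D3:**
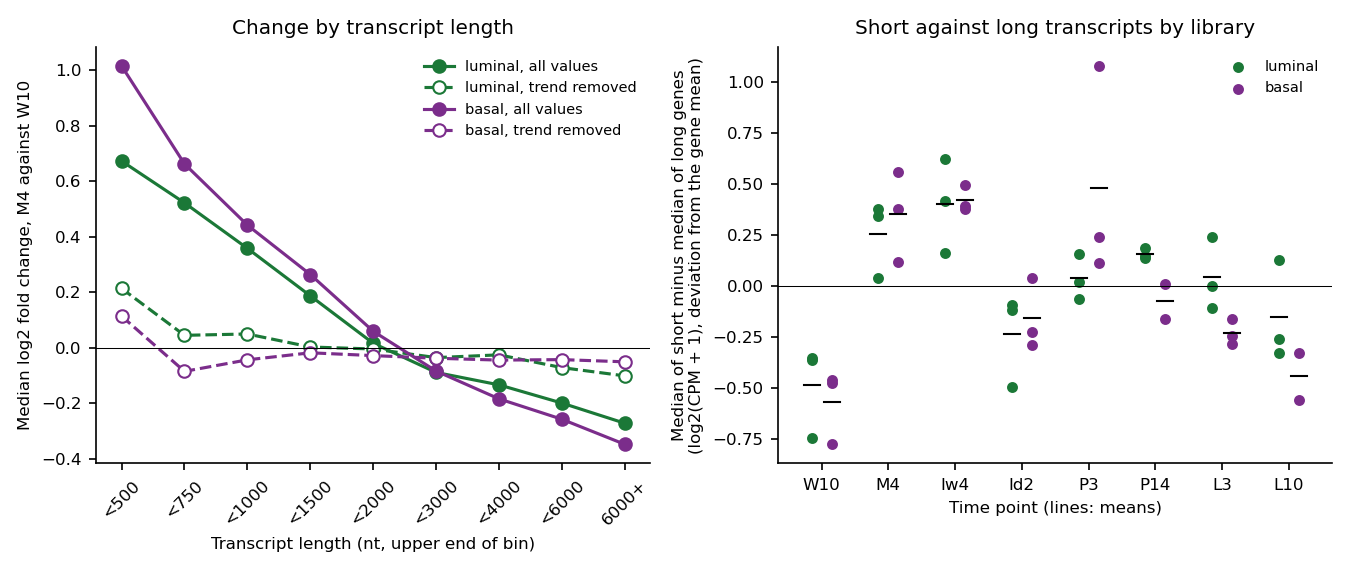
Left, median log2 fold change between M4 and W10 by transcript length (nt) in genes with a mean of 5 CPM or more, before and after each library's trend on length and GC content was removed. Right, the short-against-long index (log2 units) of every library by time point, with lines at the means: all W10 libraries lie below -0.3 and all M4 libraries above 0, as do all Iw4 libraries.

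Several single genes of the cell cycle were called higher, though few members of the cell cycle lists were, and no gene's change was called different between the cell types. Stmn1, which encodes the microtubule-destabilizing protein stathmin, measured 9.17, 4.97 and 2.99 CPM at W10 and 90.8, 67.2 and 40.6 CPM at M4 in luminal cells. Its log2 fold change was 3.36 ± 0.45 (SE, n = 3 per time point, adjusted p = 7.54e-05), and it was called after any one of the 6 luminal libraries was left out. In basal cells Stmn1 measured 4.36, 4.41 and 6.39 CPM at W10 and 23.2, 52.8 and 16.6 CPM at M4, with M4 replicate 2 the highest, a log2 fold change of 2.25, adjusted p = 0.00266. Birc5, or survivin, a subunit of the chromosomal passenger complex, measured 2.12, 0.561 and 0.747 CPM at W10 and 17.6, 35.1 and 10.6 CPM at M4 in luminal cells and had a log2 fold change of 3.28 ± 0.60 (SE, n = 3 per time point, adjusted p = 0.00149). Among its basal libraries, 0.887, 0.615 and 0.170 CPM at W10 and 2.44, 21.5 and 4.27 CPM at M4, replicate 2 stood far above the rest (log2 fold change 2.28, adjusted p = 0.0285, not called). Also called higher in luminal cells were the cytokinesis factor Ect2 (2.83 log2), the kinetochore genes Ska1 (2.93) and Kntc1 (2.80), the cohesin acetyltransferase Esco2 (2.53), the condensin subunit Smc2 (2.12), the dUTPase gene Dut (2.19) and Rrm1 (1.65), a subunit of ribonucleotide reductase. Gins1, a component of the replicative helicase, rose in both cell types, by 1.45 in luminal and 1.92 in basal cells.

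Of 25 genes of mitosis, Birc5 alone was called by limma, in luminal cells (0.878% of all genes were called higher there), a call lost without M4 luminal replicate 1 or 2 and in the fit of 12 libraries. With edgeR 1 member was called in each cell type. The list's median log2 fold change was 2.35 in luminal and 1.68 in basal cells. At an FDR under 0.05, 10 of the 25 passed in luminal and 1 in basal cells, beside 373 and 306 of all 17078 genes called higher at that FDR. Every M4 library lay above every W10 library for 23 of 25 in luminal cells and 12 of 25 in basal cells, beside 10.9% and 11.4% of all genes. Mki67, the proliferation antigen Ki-67, measured 84.1, 32.8 and 22.3 CPM at W10 and 204, 514 and 183 CPM at M4 in luminal cells (log2 fold change 2.73, adjusted p = 0.0393). In basal cells it measured 55.6, 26.4 and 16.6 CPM at W10 and 43.5, 419 and 47.2 CPM at M4 (log2 fold change 1.68, adjusted p = 0.356), so that replicate 2 alone stood above W10. Cdk1, the mitotic kinase, had a luminal log2 fold change of 2.93, adjusted p = 0.0127, Top2a, a topoisomerase of dividing cells, 2.61, adjusted p = 0.0383, and Ube2c, a ubiquitin ligase partner at anaphase, 2.84, adjusted p = 0.0269. Summed over the list, W10 luminal libraries held 259, 148 and 101 CPM and M4 luminal libraries 789, 1721 and 635 CPM. W10 basal libraries held 184, 99.4 and 64.0 CPM and M4 basal libraries 179.9, 1641 and 242 CPM. M4 replicate 2 was thus the highest sort in both cell types, and M4 basal replicate 1 lay within the W10 basal range. Without M4 basal replicate 2 the basal median was 0.90, and without M4 luminal replicate 2 the luminal median was 1.86. The luminal median was 2.38 with the length and GC trend removed, when only Birc5 was again called. Of 24 genes of DNA replication, 2 were called in luminal cells (Rrm1 and Gins1) and 1 in basal cells (Gins1), with medians of 1.41 and 0.84, and M4 above W10 in every library for 21 luminal and 11 basal genes. No luminal member was called without any one luminal library other than M4 replicate 6, or with the length and GC trend removed, and the basal call was lost without M4 basal replicate 2, when the basal median was 0.40. In the fit of 12 libraries no member was called in either cell type. In a bulk library more cells in cycle and more RNA per cycling cell cannot be told apart, and the same holds for any cell type below.

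**Figure D4:**
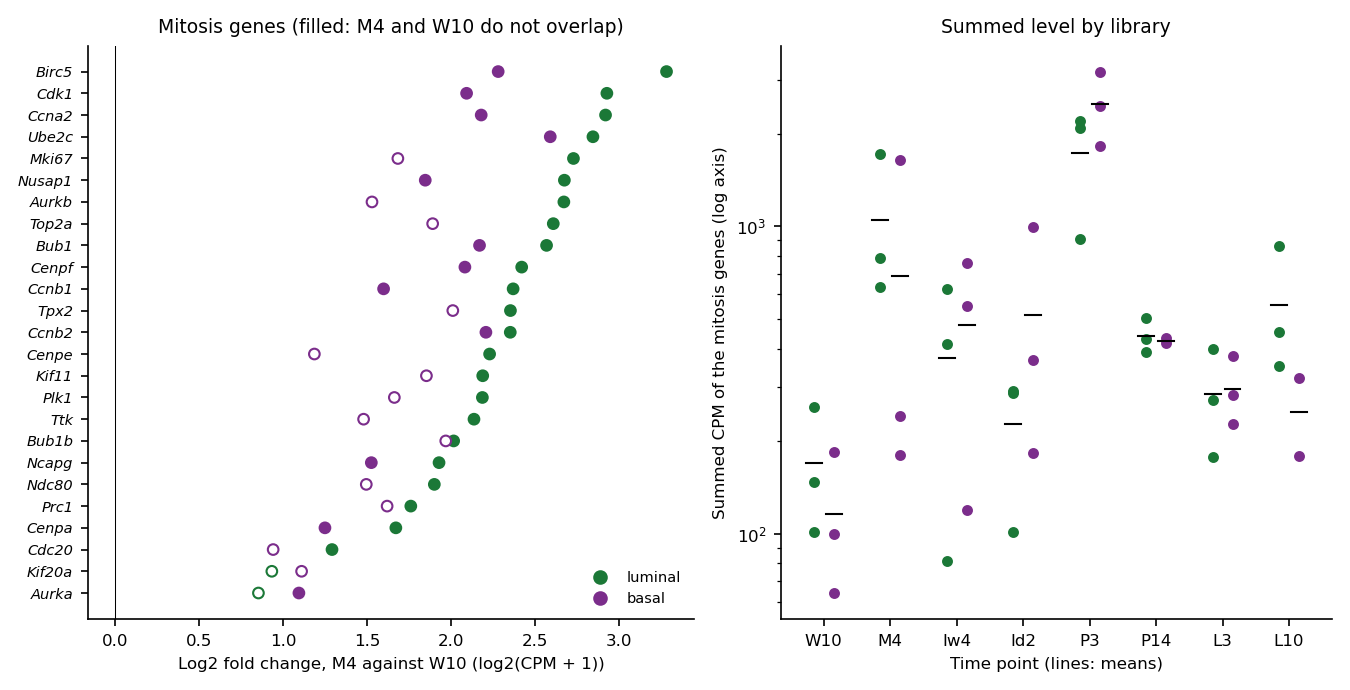
Left, log2 fold change between M4 and W10 of the 25 mitosis genes in luminal (green) and basal (purple) cells, filled where no M4 library overlaps a W10 library. Right, their summed CPM on a log axis in every library by time point, with lines at the means: the 3 W10 luminal libraries lie at 101 to 259 CPM, the 3 M4 luminal libraries at 635 to 1721 CPM, and early pregnancy (P3) reaches 3189 CPM.

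At the other time points the mitosis sum varied widely. It was 907 to 2206 CPM in luminal and 1832 to 3189 CPM in basal cells in early pregnancy (P3), and 81.6 to 626 CPM and 119 to 760 CPM at Iw4. The promoters of the mitosis genes were read for short elements. A CCAAT box close upstream of the start is common in genes expressed in mitosis, and so is the element TTTGAA, the core of the cell cycle genes homology region. Promoters from RefSeq (GRCm38.p6) were found for 21 of the 25 mitosis genes, and the 250 bases before the start were read for CCAAT and TTTGAA on either strand (on the opposite strand the first reads ATTGG, the second TTCAAA). Neither motif contains the other. CCAAT lay in 18 of 21 (85.7%), TTTGAA in 8 (38.1%) and both in 8 (38.1%). Over all 27025 promoters the shares were 34.5%, 16.3% and 5.73%, and over the 11722 promoters of genes in the table they were 35.5%, 10.9% and 4.07%. Of 19 DNA replication promoters 13 held CCAAT (68.4%) and 2 held TTTGAA (10.5%), whereas of 17 respiratory chain promoters 6 held CCAAT (35.3%) and 1 held TTTGAA (5.88%). The 120 bases before the start are shown for Ube2c (chr2:164769809-164769928, plus strand), Top2a (chr11:99024190-99024309, minus strand) and Cdk1 (chr10:69352913-69353032, minus strand), chosen as mitosis genes with both elements, and for Birc5 (chr11:117849117-117849236, plus strand), the called member, in which neither occurs in this window; each is written 5′ to 3′ with both elements in capitals in either orientation.
Ube2c: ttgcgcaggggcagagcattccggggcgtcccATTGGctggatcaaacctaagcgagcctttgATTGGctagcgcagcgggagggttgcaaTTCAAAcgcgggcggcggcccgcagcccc
Top2a: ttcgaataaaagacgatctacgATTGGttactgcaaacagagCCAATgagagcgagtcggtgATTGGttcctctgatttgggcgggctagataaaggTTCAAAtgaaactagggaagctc
Cdk1: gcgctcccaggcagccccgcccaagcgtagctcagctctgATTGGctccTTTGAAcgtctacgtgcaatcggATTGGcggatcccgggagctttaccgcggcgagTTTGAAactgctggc
Birc5: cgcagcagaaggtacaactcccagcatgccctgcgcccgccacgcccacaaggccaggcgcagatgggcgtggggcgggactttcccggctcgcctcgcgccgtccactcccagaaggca

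In Ube2c the first bases of the elements lie between 88 and 29 bases before the start, in Top2a between 98 and 23, and in Cdk1 between 80 and 15. A match of these letters is a description of the sequence and not a measured binding site.

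Among the 30 genes of progenitor and alveolar cells Wap alone was called, in luminal cells, where 0.878% of all genes were called higher. M4 replicate 6 held the highest level of most milk genes named here. Wap, the whey acidic protein, measured 15.1, 1.19 and 1.24 CPM at W10 and 56.5, 47.5 and 582 CPM at M4 in luminal cells and had a log2 fold change of 4.77 ± 1.04 (SE, n = 3 per time point, adjusted p = 0.00623). All M4 libraries exceeded all W10 libraries, but the call held in only 1 of the 6 fits that left out a luminal library, and edgeR gave an adjusted p of 0.0243. No progenitor and alveolar gene was called in the fit of 12 libraries or with the length and GC trend removed. The basal libraries held 1.26, 0.513 and 0.0852 CPM at W10 and 12.2, 4.69 and 82.2 CPM at M4 (log2 fold change 3.57, adjusted p = 0.0607, not called), with replicate 6 again the highest. Hephl1, a multicopper ferroxidase and not one of the milk genes listed, measured 1.41, 0 and 0.124 CPM at W10 and 5.36, 7.15 and 29.6 CPM at M4 and was called in luminal cells (log2 fold change 3.06, adjusted p = 0.00209), also with replicate 6 highest. Glycam1, a mucin secreted into milk, ran from 10.3, 0.771 and 1.37 CPM at W10 to 52.2, 149.6 and 2384 CPM at M4 (log2 fold change 6.21, adjusted p = 0.0136). Csn2, β-casein, measured 13376, 1925 and 4024 CPM at W10 and 8499, 19165 and 34109 CPM at M4, with overlapping groups (log2 fold change 1.91, adjusted p = 0.218). Csn1s2a, another casein, had a luminal log2 fold change of 2.50, adjusted p = 0.103. Elf5, the transcription factor of alveolar fate, and Kit, a receptor of luminal progenitors, had log2 fold changes of 0.38 and -0.14. Of the 30 progenitor and alveolar genes, 9 lay above W10 in all M4 luminal libraries (10.9% of all genes did) and none below, and the median was 0.48 in luminal and 0.39 in basal cells. These medians leaned on single libraries. The luminal median was 0.20 without W10 replicate 5 and 0.19 without M4 replicate 6. The basal median was -0.03 without W10 replicate 6, 0.09 without M4 replicate 6, 0.65 without W10 replicate 5 and 0.62 without M4 replicate 1. Milk transcripts of luminal origin in basal libraries were not tested as a source of the basal values. The M4 replicates stood in the same order for Wap in luminal and in basal cells, and the luminal marker sums of the M4 basal libraries were 1722, 1515 and 1794 CPM.

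**Figure D5:**
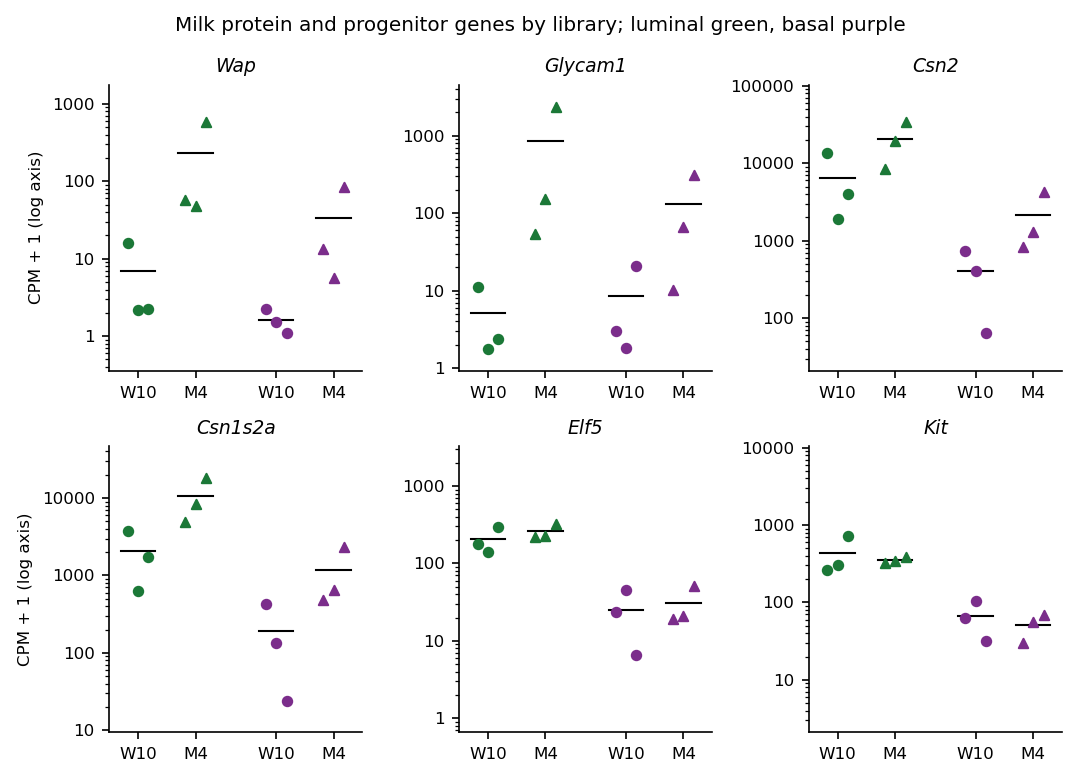
CPM + 1 of 6 milk protein and progenitor genes in every W10 (circles) and M4 (triangles) library, luminal in green and basal in purple, on log axes of equal fold range, with lines at the group means. M4 replicate 6, the rightmost triangle, is the highest M4 library for Wap, Glycam1, Csn2 and Csn1s2a in both cell types, and Elf5 and Kit overlap between the ages.

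Few genes were called lower at M4, and their number leaned on single libraries. The luminal count of 16 was 1 without M4 replicate 1 or 2, 3 without W10 replicate 3 and 39 without W10 replicate 6. The basal count of 5 was 0 without W10 replicate 3 or M4 replicate 2, 1 without W10 replicate 5 or M4 replicate 1 and 3 without W10 replicate 6. Pdlim7, a scaffold that binds actin filaments, had the lowest fold change of the 16 luminal genes, measuring 81.6, 99.4 and 45.6 CPM at W10 and 17.0, 21.3 and 34.0 CPM at M4, a log2 fold change of -1.59 ± 0.33 (SE, n = 3 per time point, adjusted p = 0.00403). Myh9, the heavy chain of nonmuscle myosin IIA, measured 1990.2, 1084 and 807 CPM at W10 and 462, 459 and 457 CPM at M4, a log2 fold change of -1.39 ± 0.31 (SE, n = 3 per time point, adjusted p = 0.00863). W10 replicate 3 was the highest for Myh9, and the M4 libraries were nearly equal. Itsn2, an endocytic scaffold, fell by 1.20 and Dgka, a diacylglycerol kinase, by 1.22 on the log2 scale. Mapk8ip3, a scaffold of JNK signalling (-1.32), Dlgap4 (-1.30), Gpatch2l (-1.20), Rilpl1 (-1.29), Sprr2f, a small proline-rich protein of cornifying epithelia (-1.51), and the pseudogenes Gm16372 (-1.46) and Ppp4r1l-ps (-1.35) were also called lower. Rev3l, the catalytic subunit of DNA polymerase zeta, measured 253, 265 and 291 CPM at W10 and 125, 135 and 136 CPM at M4 (log2 fold change -1.02, adjusted p = 0.00174) and was 1 of the 3 luminal genes still called lower with the length and GC trend removed. The luminal genes called lower had a median length of 3697.5 nt. In basal cells the 5 genes called lower included Zfp791, a zinc finger gene, with 19.7, 24.6 and 38.1 CPM at W10 and 7.73, 5.88 and 5.79 CPM at M4, a log2 fold change of -1.89 ± 0.42 (SE, n = 3 per time point, adjusted p = 0.00761). Zbtb38, which encodes a protein that binds methylated DNA, measured 256, 236 and 205 CPM at W10 and 118, 91.1 and 105 CPM at M4 (log2 fold change -1.14, adjusted p = 0.00162). The others were Nsrp1, a splicing regulator (-1.16), Zfp36l3 (-1.43) and Gm13841 (-1.13). None of these 5 was called lower with the trend removed.

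No gene of the hormone-sensing list was called. The hormone-sensing list (24 genes) had a luminal median log2 fold change of -0.52. In all M4 libraries 4 of its genes lay below W10 and 1 above, where 14.3% of all luminal genes lay below. With the length and GC trend removed its luminal median was -0.70 over the 21 genes tested. Esr1, the estrogen receptor, measured 115, 159 and 127 CPM at W10 and 101, 63.2 and 64.8 CPM at M4 (log2 fold change -0.82, adjusted p = 0.216). Pgr, the progesterone receptor, had a log2 fold change of -1.16, adjusted p = 0.411, Prlr, the prolactin receptor, -0.52, adjusted p = 0.844, and Areg, an EGF family ligand induced by estrogen, -0.92, adjusted p = 0.629. Tnfsf11, which encodes RANKL, the paracrine signal that progesterone induces, had a log2 fold change of 2.49, adjusted p = 0.034, with values of 10.4, 1.75 and 0.498 CPM at W10 and 7.42, 48.0 and 19.2 CPM at M4. In basal cells the contractile list (20 genes) had a median of -0.53 and the basement membrane list (23 genes) -0.54, again with no call. The basement membrane genes lay below W10 in all M4 basal libraries for 11 of 23, and the contractile genes for 6 of 20, beside 13.6% of all basal genes. With the length and GC trend removed the basement membrane median, over genes with a median length of 6648 nt, was -0.17 and the contractile median -0.50. Col4a2, a chain of collagen IV, measured 1614, 1094 and 1297 CPM at W10 and 623, 522 and 557 CPM at M4 (log2 fold change -1.22, adjusted p = 0.131), and Lamc1, a laminin chain, 1429.8, 1064 and 1368 CPM at W10 and 838, 895 and 775 CPM at M4 (log2 fold change -0.61, adjusted p = 0.429). Acta2 measured 8825, 8588 and 13108 CPM at W10 and 9303, 5251 and 5891 CPM at M4 (log2 fold change -0.60, adjusted p = 0.81), and Oxtr, the oxytocin receptor, 1133, 1459.7 and 2403 CPM at W10 and 973, 564 and 995 CPM at M4 (log2 fold change -0.95, adjusted p = 0.718).

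Among the 12 libraries of both ages, W10 replicate 3 was the highest in stress genes within each cell type. The immediate early and dissociation list (24 genes) summed to 28043, 9134 and 14962 CPM in W10 luminal libraries and 8808, 8191 and 10528 CPM in M4 luminal libraries, and to 50163.5, 19893 and 30136 CPM at W10 and 22218, 19041 and 24168 CPM at M4 in basal cells. Its medians were -0.80 in luminal and -0.37 in basal cells, with no call. Jund, a subunit of AP-1, measured 1565, 290.4 and 508 CPM at W10 and 232, 247 and 222 CPM at M4 in luminal cells (log2 fold change -1.39, adjusted p = 0.0185 in limma and 0.0073 in edgeR). Interferon response genes (29) had a luminal median of -0.43, with 9 below W10 in all M4 libraries. For clock genes (22) the median was also -0.43, with 7 below. Of all luminal genes 14.3% lay below. With the length and GC trend removed the medians were -0.72 over the 16 interferon genes tested and -0.24 over the 20 clock genes tested. Of 22 heat shock genes, the mitochondrial chaperonin pair Hspd1 and Hspe1 rose in luminal cells, by 1.26 and 1.28, beside 0.878% of all genes called higher. Each was called in only 1 of the 6 fits that left out a luminal library, Hspd1 alone was called with the length and GC trend removed, and neither was called in the fit of 12 libraries. Bax, a pro-apoptotic p53 target, measured 2.72, 4.13 and 4.11 CPM at W10 and 21.3, 10.0 and 11.0 CPM at M4 and rose in luminal cells (log2 fold change 1.64, adjusted p = 0.00424). Gstp1, a glutathione transferase, measured 6.50, 4.203 and 5.88 CPM at W10 and 18.1, 21.0 and 14.8 CPM at M4 and rose in basal cells (log2 fold change 1.54, adjusted p = 0.000872). Bax was the only luminal call among 23 p53 target and senescence genes, whose luminal median was -0.02. Gstp1 was the only basal call among 24 glutathione and xenobiotic genes, whose basal median was 0.15 (1.02% of all basal genes were called higher). Neither the Bax nor the Gstp1 call held in the fit of 12 libraries or with the length and GC trend removed. Of the 41 lists described, 33 had no called member in either cell type, with medians from -0.80 to 0.57 in luminal and -0.54 to 0.67 in basal cells. Among these were fatty acid synthesis (0.30 luminal, -0.03 basal), cholesterol synthesis (0.12 and 0.12), Notch signalling (-0.25 and -0.07), EGF family genes (-0.32 and -0.29), imprinted growth regulators (-0.11 and -0.43) and replication-dependent histones (0.57 and 0.67). Such small medians moved when the length and GC trend was removed. Fatty acid synthesis was then at 0.53 and 0.09, cholesterol synthesis at 0.20 and 0.26 and Notch signalling at -0.01 and 0.03.

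The libraries of the parous mice of Iw4 carry the same lane label as M4 and were amplified in batches 1 to 3 like M4. The libraries of M4, Iw4 and L3 (day 3 of lactation) all carry the label of lane 7, more than the study's methods place on a lane, so whether they shared one lane is uncertain. In luminal cells no gene was called between M4 and Iw4 (0.0%, smallest adjusted p = 0.394 in limma, 392 genes with an unadjusted p under 0.05, 0 called by edgeR). In basal cells 1 gene was called (0.00586%, with 322 under an unadjusted p of 0.05 and 0 called by edgeR). It was Tmem215, a transmembrane protein gene, at 2.14, 1.56 and 3.35 CPM in M4 and 0, 0 and 0.490 CPM in Iw4 (log2 fold change 1.52, adjusted p = 0.000201 in limma, 1 in edgeR, and 0.982 with amplification batch as a term). The genes higher at M4 than at W10 had a median log2 difference between M4 and Iw4 of 0.06 in luminal and 0.03 in basal cells. Every Iw4 library lay above every W10 library for 134 of the 150 luminal and all 174 basal genes, a count that uses the same W10 libraries as the calls themselves. The share of all genes in that order is not given here, so no result is drawn from this count. The short-against-long index of Iw4 was 0.16 to 0.62 in luminal and 0.38 to 0.49 in basal cells. At L3, whose libraries carry the lane label of M4 but were amplified in batch 5, it was -0.10 to 0.24 in luminal and -0.29 to -0.16 in basal cells. The libraries of day 2 of involution (Id2) shared batch 4 with W10 but not its lane label. Their index was -0.49 to -0.09 in luminal and -0.29 to 0.04 in basal cells. P3, P14 (later pregnancy) and L10 (later lactation) share neither a lane label nor a batch with W10 or M4. At these the index was -0.06 to 0.16, 0.14 to 0.19 and -0.33 to 0.13 in luminal cells. In basal cells it was 0.11 to 1.08, -0.16 to 0.01 and -0.56 to -0.33. What the index follows was not tested. Over the 8 time points, the W10 mean was the lowest for 73 of the luminal and 86 of the basal genes called higher, and the highest mean was at M4 or Iw4 for 95 and 99. The M4 libraries lay above every other library of their cell type for 5 of the luminal and 0 of the basal genes called higher, and the W10 libraries below every other library for 23 and 34. These genes were called for values lower at W10 than at M4, which favours such counts. Shares over all genes are not given beside them, so no result is drawn from them.

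No marker of the cell types that the sort should remove was called. Fibroblast markers (15 genes, Dcn or Gsn the most abundant) summed to 295, 467 and 166 CPM in W10 luminal libraries and 278, 173 and 121 CPM at M4. In basal cells they summed to 520.2, 395 and 593 CPM at W10 and 489, 951 and 680.1 CPM at M4, highest in replicate 2, with a median log2 fold change of 0.56. Endothelial markers (15 genes, with Vwf the most abundant in 10 of the 12 libraries) summed to 176, 295 and 144 CPM and 63.9, 169.7 and 321 CPM in basal cells of W10 and M4. Macrophage markers summed to at most 26.4 CPM and lymphocyte markers to at most 16.9 CPM in any of the 12 libraries. Sums for pericyte, adipocyte, erythroid and skeletal muscle markers reached 263, 94.3, 5.03 and 31.4 CPM. The Schwann cell and skin lists shared abundant genes with the basal cells, Egr2 and Trp63. Their basal sums were 2283, 1377 and 1779 CPM at W10 and 1394, 1074 and 1219.8 CPM at M4 for the first and 1094, 915 and 1133 and 852, 1371 and 946 CPM for the second. In M4 basal replicate 2, Krt15, a keratin of basal progenitors and skin, was the most abundant gene of the skin list at 689 CPM. The part of these cells in the calls was not tested.

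The genes of lysophosphatidic acid (LPA) signalling, which the study follows in pregnancy and involution, are given here for both ages. None of the receptor genes Lpar1 to Lpar6 nor Enpp2, which encodes the LPA-producing enzyme autotaxin, was called in either cell type. Lpar6 measured 20.6, 14.4 and 20.5 CPM at W10 and 15.2, 12.0 and 22.9 CPM at M4 in basal cells (log2 fold change -0.17, adjusted p = 0.954). Lpar3 did not exceed 1.05 CPM in luminal and 2.11 CPM in basal libraries. Enpp2 measured 4.80, 1.95 and 8.35 CPM at W10 and 3.05, 30.1 and 7.93 CPM at M4 in basal cells, with replicate 2 of M4 alone far above the others (log2 fold change 0.94, adjusted p = 0.801).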

How the data were processed

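Luminal and basal mammary epithelial cells were sorted at 8 time points and profiled by RNA-seq. The authors aligned reads to the mouse genome (NCBI build 37.1) with GSNAP, counted them per gene with HTSeq, removed genes with low counts and a few of very high count and low variability, and normalized with edgeR. The deposited signal is a normalized count (CPM) on the authors' effective library size, so that libraries sum to different totals, and it was used as deposited. A column was used for 46 of the 47 labelled samples, and the remaining basal sample was not analysed here. Values in each column are whole multiples of a step (100% whole within 0.01 reads), from which whole reads and the depth of each library were recovered. The fit was limma 3.58.1 (R 4.3.3) with a trended prior on log2(CPM + 1), 16 conditions and 46 libraries in one model, and Benjamini-Hochberg adjustment over 17078 genes. edgeR 4.0.16 (quasi-likelihood) was run on recovered reads and called 101 luminal genes higher and 13 lower, and 169 and 3 in basal cells. Transcript lengths, GC content and promoters were taken from the reference annotation by gene symbol or identifier. Members and gene lists were chosen with earlier results of these data known. Genes were named by rule: in each cell type the 12 called genes with the largest change in each direction whose libraries do not overlap, up to 4 called members of each list or else its 2 most abundant, the sort antigens and the LPA genes. Others were chosen after their values were seen (among them Mki67, Top2a, Cdk1, Ube2c, Dut, Smc2, Rev3l, the caseins, Glycam1, Elf5, Kit, Esr1, Pgr, Areg, Tnfsf11, Jund, Col4a2, Oxtr, Snrpg, Sem1, Mif, Ndufs1, Sdha, Rpl4, Krt5, Krt8, Krt18 and Tmem215). Luminal and basal cells of one sort come from the same pooled mice. Their deviations correlated positively across genes in 21 of 22 sorts (median r = 0.25), so the sort was tried as a replicate block (consensus correlation 0.179). W10 and M4 do not share mice. Replicates of a group shared R2 of 0.904 to 0.968 on the log2 scale, lowest for W10 luminal cells. Alternatives covered scaling, pseudocount, filter, threshold, tool, libraries in the fit and length.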

Additional observations from a re-analysis of the deposited data

How the results depend on the processing

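Depth was 4980557 to 12847730 reads in the 12 libraries, where 3 reads stand for 0.210 to 0.457 CPM, and a change was seen best in genes well above this level. Counts are given in the order luminal higher, luminal lower, basal higher and basal lower, against 150, 16, 174 and 5 as reported. With the W10 and M4 libraries alone in the fit they were 23, 3, 49 and 0 (fewer residual degrees of freedom). Chosen after seeing the data, removal of the length and GC trend gave 53, 6, 48 and 3, the same with the sort as a replicate block 54, 5, 48 and 3, removal of the length trend alone 75, 10, 39 and 3, and a mean of 5 CPM 157, 16, 164 and 3. An FDR of 0.05 gave 373, 106, 306 and 8. Without a fold threshold 25 luminal genes were lower, and without the basal Id2 libraries 28. The cause of the last was not tested. A pseudocount of 0.1 left 3 basal genes lower and edgeR 3. The sort as a replicate block gave 176, 16, 178 and 4. Leaving out one library gave 9 to 129, 1 to 39, 36 to 209 and 0 to 5 calls. The lowest of the higher counts came without M4 luminal replicate 1 (9) and without M4 basal replicate 2 (36). Luminal higher calls were also 40 without W10 replicate 3, 51 without M4 replicate 2 and 97 without W10 replicate 5. Luminal lower calls were 3 without W10 replicate 3, 39 without W10 replicate 6 and 1 without M4 replicate 1 or M4 replicate 2. Basal higher calls were 46, 105 and 115 without W10 replicates 3, 5 and 6 and 65 without M4 replicate 1. No gene was called for a difference of change under any of these settings. Between M4 and Iw4, 0 basal genes were called with amplification batch as a term and 0 by edgeR. Of 92 called results for named genes, 20 were called under every setting, 91 with the replicate block, 78 by edgeR, 48 of 85 with the length and GC trend removed and 32 with 12 libraries only, and none reversed.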

Other observations

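Further genes of basal cells varied between the M4 sorts. Hist1h4d, a replication-dependent histone gene, measured 70.6, 64.7 and 68.1 CPM at W10 and 66.2, 404 and 108 CPM at M4 in basal cells and 74.7, 109 and 105 CPM at W10 and 141, 350.3 and 121 CPM at M4 in luminal cells, with M4 replicate 2 the highest in both. Krt15 measured 196, 72.0 and 113 CPM at W10 and 200.9, 689 and 285 CPM at M4 and Krt14, the other keratin of basal cells followed here, 774, 458 and 625 CPM at W10 and 1328, 1087 and 734 CPM at M4 in basal cells, and neither was called (adjusted p = 0.28 and 0.739 in limma). Igfbp5, which binds insulin-like growth factors and is induced as the gland regresses, measured 12396, 9019 and 11532 CPM at W10 and 5841, 4279 and 5801 CPM at M4 in basal cells, with every M4 library below every W10 library (log2 fold change -1.05, adjusted p = 0.313 in limma, not called). Notch2 had the same order in both cell types, with 213, 215 and 199 CPM at W10 and 153, 131 and 143 CPM at M4 in luminal cells (log2 fold change -0.55, adjusted p = 0.302) and 145, 175 and 129 CPM at W10 and 104, 97.9 and 98.8 CPM at M4 in basal cells (log2 fold change -0.57, adjusted p = 0.402). Thrsp, a regulator of fatty acid synthesis, measured 34.3, 5.40 and 9.33 CPM at W10 and 44.2, 62.6 and 118 CPM at M4 in luminal cells (adjusted p = 0.0609), highest in M4 replicate 6, as were Wap and Glycam1. Genes whose M4 libraries lay beyond all W10 libraries in opposite directions in luminal and basal cells numbered 45 of 17078, and none was called for a difference of change (0 at the threshold in limma, 332 with an unadjusted p under 0.05, 0 by edgeR).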
